A study of Mus musculus with 4 samples.

Results

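The 10 genes described here are transcription factors of the lung epithelium: Nkx2-1, Foxa1, Foxa2, Gata6, Sox2, Sox9, Id2, Cebpa, Klf5 and Grhl2. They were chosen by name from a table of 45706 genes, and all 10 passed the minimum of a mean of 5 counts over the lungs, as did 18763 genes in all. RNA was sequenced from left lung lobes of C57BL/6 mouse embryos at embryonic day 17 (E17), untreated, 2 of them wild type (Myh10+/+) and 2 homozygous for Myh10L458R (Myh10-/-). Myh10 encodes the heavy chain of non-muscle myosin II-B, an actin motor. The allele is a recessive missense change from a mutagenesis screen that every cell of the embryo carries, so an effect cannot be placed in one cell type. The table tells the lungs apart by genotype and a replicate number, and the comparison asks whether the regulators of epithelial identity differed at the mRNA level between Myh10+/+ and Myh10-/- lungs.

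NKX2-1 is the homeodomain factor that marks the lung lineage and is needed for it. It binds surfactant and secretory genes together with the forkhead factors FOXA1 and FOXA2 and the zinc finger factor GATA6. In the branching lung SOX9 and ID2 mark the distal tip progenitors and SOX2 marks the proximal airway, while C/EBPα, KLF5 and GRHL2 are known for late maturation, alveolar differentiation and epithelial junctions. Alveolar type 2 cells, which make surfactant, and the flat alveolar type 1 cells arise from the distal progenitors late in gestation.

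Myh10+/+ libraries held 23156026 and 19116971 counts on genes, Myh10-/- libraries held 27573824 and 32055306, and the lowest count of any of the 10 factors in a lung was 173. Replicate lungs differed by more than counting error (chi-square per degree of freedom of 5.59 for the Myh10+/+ pair and 9.27 for the Myh10-/- pair). Xist was high in 1 lung of each genotype and Ddx3y in the other, so both genotypes held a female and a male lung. Levels are given as counts per 1000000 (CPM) of libraries scaled by TMM, a method that takes most genes as unchanged. Myh10 itself measured 505 and 504 CPM in Myh10+/+ lungs and 539 and 513 in Myh10-/- lungs (log2 fold change 0.06 ± 0.06 (SE), adjusted p = 0.662), which does not check the genotype, since the allele is a point mutation. Lung epithelium was present in every lung: Sftpc, the surfactant protein C gene, lay between 3876 and 5815 CPM, and no gene of the pan-epithelial list was at 0.

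None of the 10 factors passed an adjusted p of 0.05 between genotypes in edgeR's quasi-likelihood test, where 1.64% of the 18763 genes did. Cebpa and Foxa2 had an unadjusted p under 0.05, as did 16.5% of all genes. DESeq2, which gave an adjusted p to 11487 genes and called 2.99% of them, also called 0 of the 10 and had 1 at an unadjusted p under 0.05. Fold changes were negative for 7 factors and positive for 3, with a median of -0.09 on the log2 scale beside 0.002 over all genes tested. In 7 of the 10 the lungs of each genotype did not overlap, which was also true of 48.3% of all genes. In 6 of the 10 the Myh10-/- lungs were the lower pair, beside 24.3% of all genes. Among all 9054 genes without overlap, the Myh10-/- lungs were lower in 4564. The 95% intervals were narrow. All 10 lay within a log2 difference of 0.5 either way, which is 41.4% higher or 29.3% lower, and 6 lay within 0.3. These data therefore bound the change in whole lung mRNA of each factor without showing that it was 0. In whole lungs, fewer cells of a type and less RNA per cell cannot be told apart. The labels do not say from which litters the embryos came, so the p-values cover only the spread between these 4 lungs. The spread of each gene is moderated by edgeR across all genes tested. This takes 2 residual degrees of freedom to a median total of 12.1, and the interval widths rest on it. Over all genes, more were called without Myh10-/- replicate 2 and fewer without Myh10+/+ replicate 2. List counts with a lung left out are read beside that change.

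**Figure D1:**
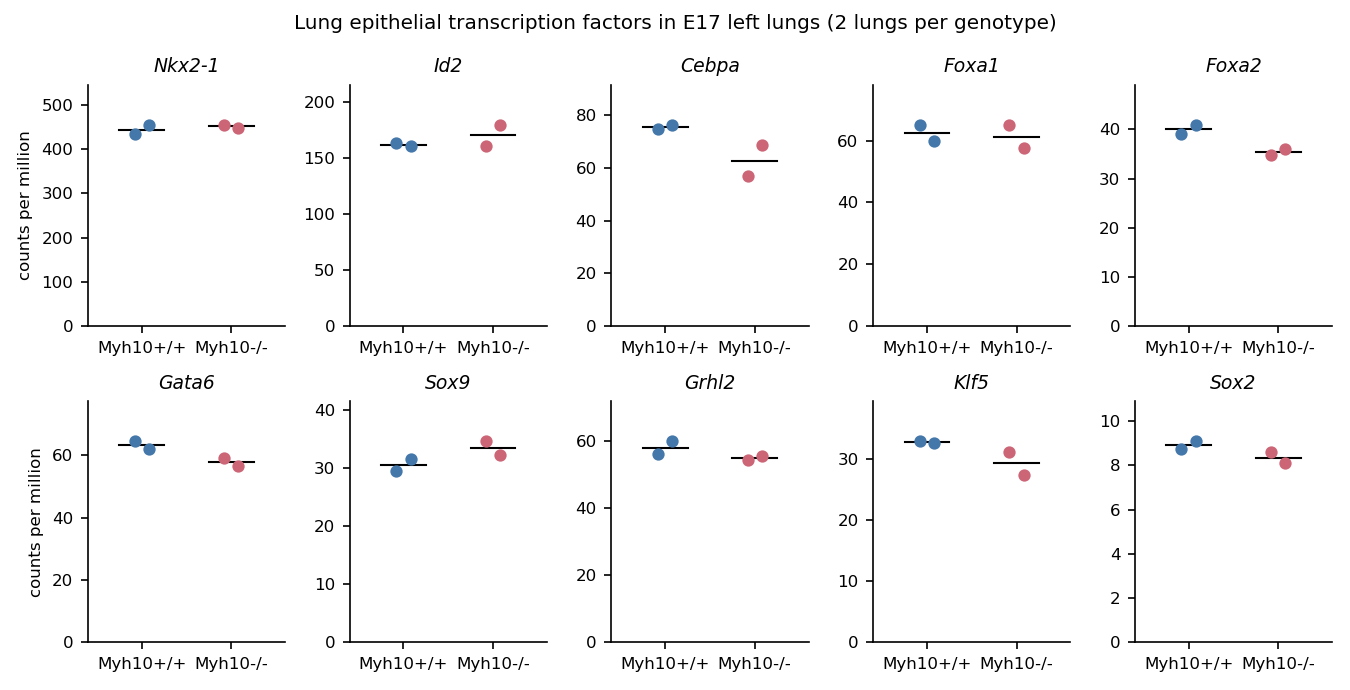
CPM (counts scaled by TMM, y axes from 0) of the 10 transcription factors in each of the 2 Myh10+/+ (blue) and 2 Myh10-/- (red) lungs, with black bars at the genotype means. Panels run from the highest to the lowest level per kilobase; the genotypes overlap for Nkx2-1, Id2 and Foxa1 and lie close together for the others.

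Among the factors that set lung identity, Nkx2-1 (chromosome 12, 56531958 to 56536908, minus strand, GRCm38) measured 434 and 455 CPM in Myh10+/+ lungs and 455 and 448 in Myh10-/- lungs. The genotypes overlapped, and the log2 fold change was 0.02 ± 0.05 (SE), with a 95% interval from -0.09 to 0.14 and an adjusted p of 0.881. As a percent of the Myh10+/+ level, the interval ran from -6.32% to 10.2%, and without Myh10+/+ replicate 1 the value was -0.01. Foxa1 (chromosome 12, 57540628 to 57546916, minus strand), a pioneer factor that opens chromatin, measured 65.2 and 59.8 in Myh10+/+ lungs and 65 and 57.7 in Myh10-/- lungs. The spread within each genotype was larger than the gap between them (log2 fold change -0.03 ± 0.08 (SE), adjusted p = 0.906), and the sign turned positive without Myh10+/+ replicate 1 (0.04) or Myh10-/- replicate 2 (0.06).

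Its paralog Foxa2 (chromosome 2, 148042877 to 148046969, minus strand), needed for alveolar maturation, measured 39.1 and 41.0 CPM in Myh10+/+ lungs and 34.9 and 36.1 in Myh10-/- lungs. Both Myh10-/- lungs were below both Myh10+/+ lungs, by a log2 fold change of -0.17 ± 0.08 (SE) with a 95% interval from -0.34 to -0.01 (adjusted p = 0.272 in edgeR's test). Gata6 (chromosome 18, 11052064 to 11085635, plus strand), which acts in lung epithelium and is also expressed in smooth muscle and heart, measured 64.4 and 61.9 in Myh10+/+ lungs and 59.1 and 56.4 in Myh10-/- lungs. The Myh10-/- lungs were again the lower pair, and the difference did not pass the test (log2 fold change -0.13 ± 0.07 (SE), adjusted p = 0.381). Of the smooth muscle list, 0 of 9 genes were called, its summed level was 826 and 878 CPM in Myh10+/+ lungs and 811 and 805 in Myh10-/- lungs, and no gene of it was at 0. Of the cardiac muscle list, 6 of 11 genes were called lower (2 without Myh10+/+ replicate 2). Its summed level was between 200.2 and 254.5 in Myh10+/+ lungs and between 141.5 and 156 in Myh10-/- lungs, with no marker at 0, and its part in the Gata6 values was not tested.

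The distal progenitor factor Sox9 (chromosome 11, 112782224 to 112787760, plus strand) measured 29.6 and 31.7 CPM in Myh10+/+ lungs and 34.7 and 32.3 in Myh10-/- lungs. It was the one factor whose Myh10-/- lungs both lay above both Myh10+/+ lungs, by a log2 fold change of 0.13 ± 0.08 (SE), with a 95% interval from -0.04 to 0.30 and an adjusted p of 0.434. SOX9 is also the master factor of cartilage. Of the cartilage list 0 of 11 genes were called (1 without Myh10-/- replicate 2), none was at 0, and its summed level was 268 and 254 CPM in Myh10+/+ lungs and 257 and 265 in Myh10-/- lungs. Most of that sum was Matn4 and Hapln1. The cartilage collagen Col2a1 was low, at 0.873 and 0.840 CPM against 1.55 and 1.24 (log2 fold change 0.69, adjusted p = 0.288), and Col9a3 measured 8.64 and 8.67 against 11.1 and 9.88 (log2 fold change 0.28, adjusted p = 0.248). Acan went the other way, at 0.5675 and 0.5252 CPM against 0.3235 and 0.2486 (log2 fold change -0.94, adjusted p = 0.326 in edgeR's test). Fold changes were positive for 6 of the 11 genes and negative for 5, with a median of 0.09. Of the 11 genes 5 had a larger fold change than Sox9, and the part of cartilage in the Sox9 values was not tested. Id2 (chromosome 12, 25093799 to 25097140, minus strand), which encodes an inhibitor of helix-loop-helix factors, measured 164 and 161 in Myh10+/+ lungs and 161 and 179.9 in Myh10-/- lungs. A single Myh10-/- lung, replicate 2, stood above the other 3, and the log2 fold change of 0.07 ± 0.06 (SE; adjusted p = 0.571) became -0.01 without it. The proximal factor Sox2 (chromosome 3, 34650405 to 34652461, plus strand) was the least abundant, at 8.73 and 9.09 CPM in Myh10+/+ lungs and 8.59 and 8.11 in Myh10-/- lungs. Its log2 fold change of -0.09 ± 0.12 (SE) had the largest error of the 10, with a 95% interval from -0.34 to 0.16 and an adjusted p of 0.739.

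Cebpa (chromosome 7, 35119293 to 35121928, plus strand), which encodes the leucine zipper factor C/EBPα of late lung maturation, differed most between genotypes. It measured 74.9 and 76.5 CPM in Myh10+/+ lungs and 57.1 and 68.6 in Myh10-/- lungs, so that both Myh10-/- lungs lay below both Myh10+/+ lungs. The log2 fold change was -0.27 ± 0.09 (SE), with a 95% interval from -0.45 to -0.08, and the adjusted p of 0.145 did not pass. This outcome turned on the lungs in the fit and on the filter. Without Myh10-/- replicate 2 the value was -0.40, and without Myh10-/- replicate 1 it was -0.14. With every gene of at least 1 count in the fit, the adjusted p in edgeR's test was 0.0206. That fit called 1162 of 28549 genes, beside 308 of 18763 in the reported fit. Over all alternatives the value ran from -0.40 to -0.08. Cebpa is also expressed in myeloid cells. Of the macrophage and myeloid list, 2 of 13 genes were called lower (1 without Myh10+/+ replicate 1 and 4 without Myh10-/- replicate 2), its summed level was 402 and 373 CPM in Myh10+/+ lungs and 297 and 341 in Myh10-/- lungs, and no marker was at 0. The largest part of that sum was Lyz2, 1 of the 2 called, at 186 and 173 CPM against 117 and 148. Fold changes were negative for 10 of the 13 genes and positive for 3. Cd68, Adgre1, Cx3cr1 and Mrc1 were near 0 on the log2 scale (0.08, -0.03, -0.05 and 0.07) and overlapped between genotypes. The part of myeloid cells in the Cebpa values was not tested.

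Klf5 (chromosome 14, 99298691 to 99315036, plus strand), a Krüppel-like factor of alveolar epithelium, measured 32.9 and 32.6 CPM in Myh10+/+ lungs and 31.2 and 27.3 in Myh10-/- lungs. The Myh10-/- pair was lower, and the log2 fold change of -0.16 ± 0.08 (SE) did not pass (adjusted p = 0.339). Grhl2 (chromosome 15, 37233036 to 37363569, plus strand), the grainyhead factor of epithelial junction genes, measured 56.1 and 59.9 in Myh10+/+ lungs and 54.3 and 55.6 in Myh10-/- lungs. This gap was close to the spread between the Myh10+/+ lungs (log2 fold change -0.08 ± 0.07 (SE), adjusted p = 0.640).

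Little of the sequence searched for these genes was shared with other genes, and the reads themselves were not examined. Opposite-strand genes overlapped 1.43% of the exon length of Gata6, 1.96% of Grhl2 and 1.93% of Cebpa, and the sources used here do not say if counting took strand into account. Of the 75-base stretches of the longest coding transcript, 1.83% for Nkx2-1, 1.03% for Grhl2 and 0.60% for Gata6 also occurred in another gene. None did for the other 7, the paralogs Foxa1 and Foxa2 and the pair Sox2 and Sox9 included. Exon sequence outside that transcript was not searched.

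Per kilobase of exon the factors covered a wide range of levels. Nkx2-1 was the highest at a mean of 158 CPM per kilobase over the 4 lungs, above 99.1% of tested genes, followed by Id2 at 68.2 and Cebpa at 26.3. Foxa1 (18.6) and Foxa2 (15.9) came next, then Gata6 (9.29), Sox9 (7.76), Grhl2 (6.56), Klf5 (5.96) and Sox2 (4.2). Sox2 lay near the middle of all tested genes, above 48.2% of them. Neighbours in this order had ranges over the lungs that did not overlap, except Foxa1 with Foxa2 and Grhl2 with Klf5.

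**Figure D2:**
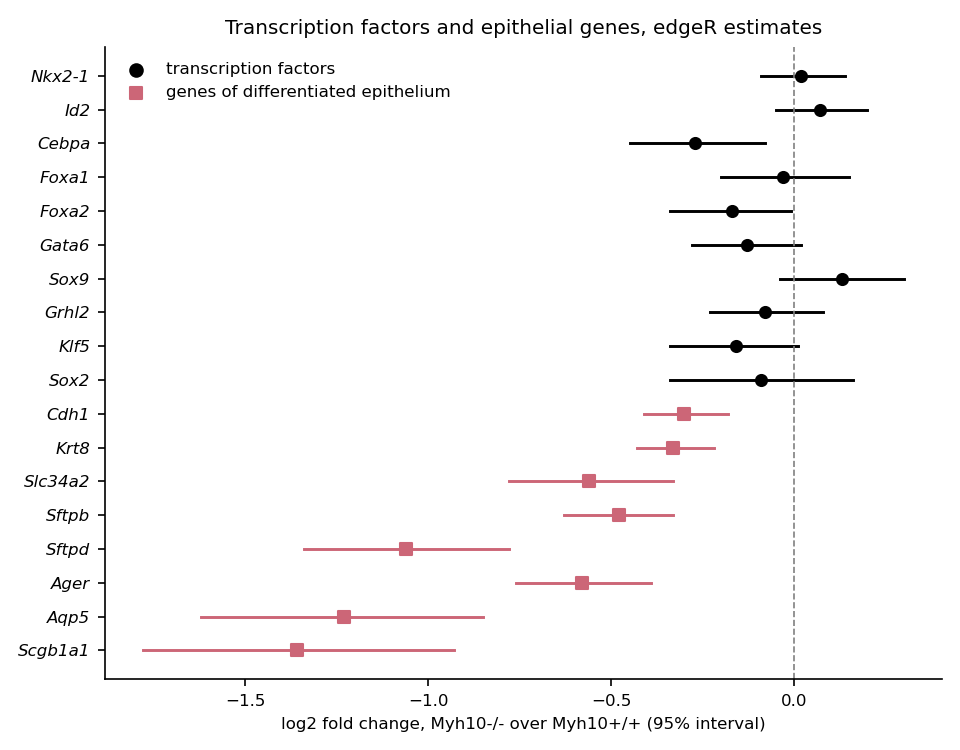
Log2 fold change of Myh10-/- over Myh10+/+ lungs with 95% intervals from edgeR (2 lungs per genotype) for the 10 transcription factors (black circles) and 8 genes of differentiated epithelium picked from those called (red squares). The factors lie between -0.27 for Cebpa and 0.13 for Sox9, and the epithelial genes between -0.30 for Cdh1 and -1.36 for Scgb1a1, while others of their lists, such as Epcam at -0.04, were near 0. With libraries scaled to pan-epithelial genes, 6 of the 7 negative factor values turn positive.

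Ratios within a lung do not depend on how the libraries are scaled, but with 2 lungs per genotype an exact two-sided permutation test cannot give a p under 0.333, so they are described only. The log2 ratio of Sox2 to Sox9, proximal to distal, was -1.76 and -1.80 in Myh10+/+ lungs and -2.01 and -2.0 in Myh10-/- lungs. The genotypes were 0.22 apart, and the lungs of one genotype differed by at most 0.04. Sox2 had only 173 to 261 counts per lung, and the fold changes had errors of 0.12 (SE) for Sox2 and 0.08 for Sox9. The gap of 0.04 between 2 lungs is therefore no measure of the noise, and a shift in this ratio was not tested. The log2 ratio of Foxa1 to Foxa2 overlapped between genotypes, at 0.74 and 0.54 against 0.90 and 0.68. That of Cebpa to Nkx2-1 was -2.54 and -2.57 in Myh10+/+ lungs and -2.99 and -2.71 in Myh10-/- lungs. Against the mean of the pan-epithelial list, Sox9, Id2 and Nkx2-1 were relatively higher in both Myh10-/- lungs, by 0.32, 0.26 and 0.21, as were Grhl2 and Sox2 by 0.11 and 0.09. Foxa2, Gata6, Klf5, Foxa1 and Cebpa overlapped between genotypes.

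The same list served as a scaling of the libraries. Under it the middle of all genes sat at a log2 fold change of 0.19, so values under it are read against that shift. Sox9 at 0.32 (adjusted p = 0.012), Id2 at 0.26 (adjusted p = 0.00586) and Nkx2-1 at 0.21 (adjusted p = 0.0168) were then called higher, beside 27.2% of all genes called higher under this scaling, a share near that of the factors. Of the 7 negative factors only Cebpa stayed below 0, at -0.08. Under the other scalings, DESeq2 size factors and library totals, all 10 kept their sign and none was called.

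**Figure D3:**
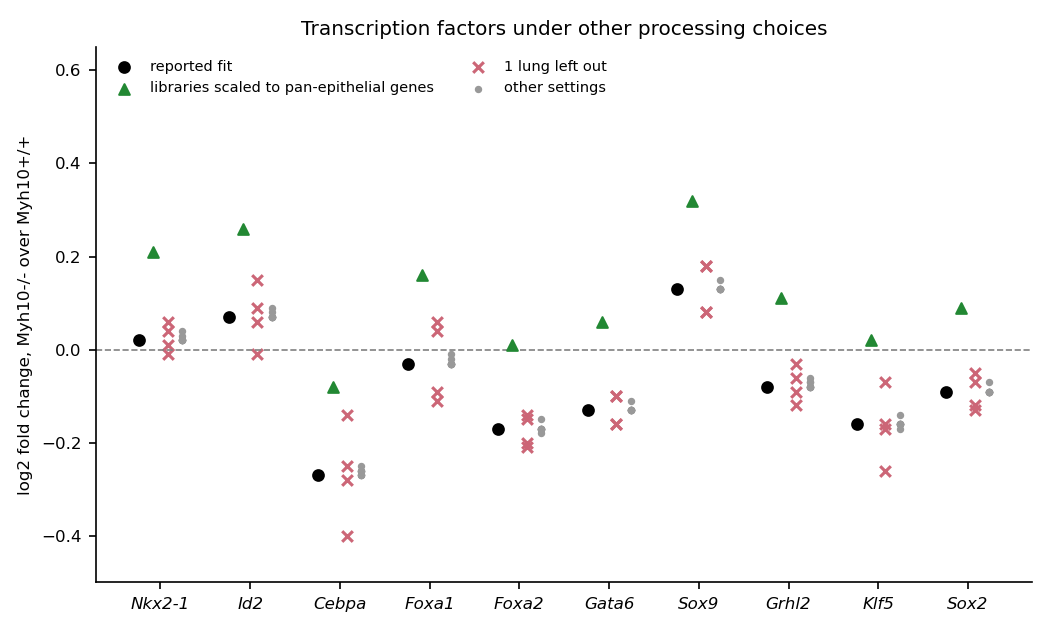
Log2 fold change of each transcription factor in the reported fit (black), with libraries scaled to pan-epithelial genes (green), with 1 lung left out (red crosses) and under the other settings (grey). The pan-epithelial scaling moves every factor upward, with Sox9 at 0.32 and Cebpa at -0.08, and turns Foxa1, Foxa2, Gata6, Sox2, Klf5 and Grhl2 positive; of the rest, Cebpa spreads most, from -0.40 to -0.14, when 1 lung is left out.

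Beyond the 10, a list of 33 other regulators of lung epithelium held 4 genes that fell and 0 that rose, beside 1.34% of all genes called lower and 0.298% called higher. Its median log2 fold change was -0.03. Elf3, an epithelial ETS factor, fell from 27.7 and 29.9 to 21.8 and 21.3 CPM (log2 fold change -0.42, adjusted p = 0.0196). Srebf1, the lipid synthesis factor used for surfactant lipids, fell from 128 and 130.3 to 99.6 and 110.3 (log2 fold change -0.30, adjusted p = 0.0293), and Stat3, a cytokine-driven factor, from 126 and 119 to 101 and 103 (log2 fold change -0.26, adjusted p = 0.033). Hopx, a homeodomain protein and alveolar type 1 marker, fell from 298 and 306 to 199 and 256 (log2 fold change -0.41, adjusted p = 0.0394). Hopx shares 27.18% of its exon length with the opposite-strand Hopxos, and it was not called by DESeq2 (adjusted p = 0.249). The list count was 2 without Myh10+/+ replicate 2 and 8 without Myh10-/- replicate 2. Etv5, the FGF-driven factor of distal tips, measured 187 and 177 against 183 and 183 and was not called (log2 fold change 0.01, adjusted p = 0.959; -0.03 without Myh10+/+ replicate 2).

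Of 45 tested relatives of the 10 in their own gene families, 3 fell and 0 rose, all Krüppel-like factors. Klf2, known from endothelium under flow, fell from 27.0 and 28.9 to 15.1 and 18.2 CPM (log2 fold change -0.74, adjusted p = 0.00579), Klf9 by 0.42 and Klf4 by 0.43 on the log2 scale (adjusted p = 0.0196 and 0.0247). The count was 6 without Myh10+/+ replicate 1 and 8 without Myh10-/- replicate 2. The other Fox, Gata, Sox, Id, Cebp and Grhl relatives had 0 calls. Of the 10 endothelial genes, 1 fell (Cldn5), none was at 0, and the summed level was 1857 and 1836 CPM in Myh10+/+ lungs and 1708 and 1667 in Myh10-/- lungs. The count of endothelial calls was 0 without Myh10+/+ replicate 2 and 2 without Myh10-/- replicate 1, and the part of these cells in the Klf2 values was not tested.

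Genes of differentiated alveolar cells, known targets of these factors among them, fell in larger numbers. Of 17 surfactant and alveolar type 2 genes 13 fell, and of 17 alveolar type 1 genes 12 fell, with a median log2 fold change of -0.39 in each list. Leaving out 1 lung gave 9 to 16 and 9 to 13 calls, and DESeq2 gave 13 and 8. Sftpd, a surfactant protein, measured 45.8 and 50.5 CPM in Myh10+/+ lungs and 19.1 and 26.9 in Myh10-/- lungs (log2 fold change -1.06 ± 0.13 (SE), adjusted p = 0.00441). Aqp5, the alveolar type 1 water channel, measured 29.1 and 27.4 against 8.56 and 15.3 (log2 fold change -1.23 ± 0.18 (SE), adjusted p = 0.00897), and Ager, a receptor gene used as a type 1 marker, 708 and 686 against 421 and 515 (log2 fold change -0.58, adjusted p = 0.00997). DESeq2 called Sftpd and Ager but not Aqp5 (adjusted p = 0.0584). In each of these genes replicate 1 of the Myh10-/- lungs was the lowest, as it was for Cebpa. The intervals of 7 genes in each alveolar list lay wholly below -0.27, the lowest estimate among the 10 factors, that of Cebpa. The interval of Cebpa itself reached -0.45. It overlapped those of Sftpa1 (upper end -0.41), Ager (-0.39) and others among these genes, while those of Sftpd (-0.78) and Aqp5 (-0.85) lay below it. Relative to Nkx2-1 within a lung, Sftpb was at log2 ratios of 0.92 and 0.81 in Myh10+/+ lungs and 0.33 and 0.39 in Myh10-/- lungs.

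Recognition letters of the factors were looked for in RefSeq promoters (GRCm38.p6, 250 bases before each start, both strands), which held 6 of the 10 factors with 8 starts. The letters were CTCAAG or CAAGTG for NKX2-1, which can overlap each other, TGTTTAC, the variant TATTTAC and also TGTTTGC for forkhead factors, TTGCGCAA for C/EBP and AACCGGTT for grainyhead. They occurred in 22.6%, 9.73%, 0.164% and 0.116% of all 32851 promoters. Among the factors, the Foxa1 promoter held forkhead letters at -141, counted in bases from the start, 1 of the Foxa2 starts held NKX2-1 letters at -187, and Nkx2-1, Sox2, Id2 and Cebpa held none. The 210 bases before the start are shown for Nkx2-1 and for 4 fallen type 2 genes that hold such letters, in capitals on either strand, because Nkx2-1 was not called while those 4 genes fell.
Nkx2-1 (chr12:56536909-56537118, minus strand): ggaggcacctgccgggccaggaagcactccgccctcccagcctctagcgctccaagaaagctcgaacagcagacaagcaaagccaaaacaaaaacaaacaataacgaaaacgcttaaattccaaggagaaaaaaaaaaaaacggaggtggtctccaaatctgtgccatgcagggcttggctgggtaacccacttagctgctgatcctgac
Sftpb (chr6:72304400-72304609, plus strand): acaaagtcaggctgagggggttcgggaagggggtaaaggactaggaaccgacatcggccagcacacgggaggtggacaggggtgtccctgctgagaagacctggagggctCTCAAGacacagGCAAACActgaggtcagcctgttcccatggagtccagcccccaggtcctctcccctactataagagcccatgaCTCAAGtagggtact
Sftpa1 (chr14:41131578-41131787, plus strand): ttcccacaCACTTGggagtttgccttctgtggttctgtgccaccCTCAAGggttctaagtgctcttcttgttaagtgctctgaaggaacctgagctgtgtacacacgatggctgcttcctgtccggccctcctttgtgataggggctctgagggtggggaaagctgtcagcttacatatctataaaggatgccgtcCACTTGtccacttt
Lamp3 (chr16:19706366-19706575, minus strand): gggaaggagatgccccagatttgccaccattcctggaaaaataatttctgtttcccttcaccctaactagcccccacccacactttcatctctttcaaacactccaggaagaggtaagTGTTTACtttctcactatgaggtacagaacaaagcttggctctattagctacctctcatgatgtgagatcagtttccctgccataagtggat
Slc34a2 (chr5:53049143-53049352, plus strand): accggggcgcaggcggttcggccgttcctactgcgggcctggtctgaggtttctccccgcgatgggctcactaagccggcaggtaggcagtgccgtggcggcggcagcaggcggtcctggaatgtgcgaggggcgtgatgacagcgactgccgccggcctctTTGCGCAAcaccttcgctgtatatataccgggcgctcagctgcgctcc
The Sftpb window holds CTCAAG at -100 and -15 with reversed forkhead letters between them at -88. The Sftpa1 window holds the NKX2-1 letters at -202, -166 and -14, Lamp3 forkhead letters at -92 and Slc34a2 the C/EBP letters at -48, and the outer end of the Slc34a2 window lies in an exon of the opposite-strand Gm17182. Of the 12 type 2 genes with an entry, 4 held NKX2-1 letters, 4 forkhead letters and 1 C/EBP letters. Of 14 type 1 genes with an entry, 4 held NKX2-1 letters and 3 forkhead letters. Of 16 pan-epithelial genes, 4 held NKX2-1 letters and 0 forkhead letters. A gene was counted when any of its starts held the letters, while the shares above are of promoters, so the units differ. A match is a stretch of letters and not a measured binding site.

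These 4 genes fell. Sftpb went from 820.1 and 797 to 573 and 588 CPM (log2 fold change -0.48, adjusted p = 0.00961), and Sftpa1 from 421.5 and 370.2 to 249.5 and 284 (log2 fold change -0.57, adjusted p = 0.00592). Lamp3, a lamellar body protein, went from 401 and 357 to 276 and 306 (log2 fold change -0.38, adjusted p = 0.0178), and Slc34a2, the phosphate carrier of type 2 cells, from 821 and 745 to 465 and 599 (log2 fold change -0.56, adjusted p = 0.0225). DESeq2 called Sftpb, Sftpa1 and Lamp3 but not Slc34a2 (adjusted p = 0.0967). Nkx2-1 and Foxa1 overlapped between genotypes in the same lungs. Foxa2 and Cebpa, whose families also have letters among those shown, were lower in both Myh10-/- lungs without being called. Their log2 fold changes were -0.17 (95% interval -0.34 to -0.01) and -0.27 (-0.45 to -0.08). A link between the factors and the 4 genes was not tested. Sftpc, the most abundant type 2 transcript, measured 5815 and 5630 against 3876 and 4750 and was not called (log2 fold change -0.41, adjusted p = 0.173), although it was called with no filter and without Myh10-/- replicate 2.

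Some general epithelial genes fell as well. Of 24 pan-epithelial genes 8 fell and 0 rose, with a median log2 fold change of -0.23, and leaving out 1 lung gave 4 calls (without Myh10+/+ replicate 1) to 13 (without Myh10-/- replicate 2). Krt8, a simple epithelial keratin, went from 170.3 and 171 to 134 and 139 CPM (log2 fold change -0.33, adjusted p = 0.00984). Cdh1, which encodes E-cadherin, went from 388 and 369 to 304 and 314 (log2 fold change -0.30, adjusted p = 0.0178). Epcam measured 144 and 152 against 148 and 139 and was not called (log2 fold change -0.04, adjusted p = 0.738), with a positive sign under the pan-epithelial scaling. The list's summed level was 2576 and 2544 CPM in Myh10+/+ lungs and 2160 and 2238 in Myh10-/- lungs, beside 968.5 and 987 against 961 and 970 for the 10 factors. Of 10 epithelial targets of Grhl2, Cdh1, Rab25, Spint1 and Prss8 fell, 4 in all (1 without Myh10+/+ replicate 1, 2 without Myh10+/+ replicate 2 and 7 without Myh10-/- replicate 2). All 4 are also among the 8 pan-epithelial genes that fell, so they are not a separate set of falls. The log2 ratio of Cdh1 to Grhl2 was 2.79 and 2.62 in Myh10+/+ lungs and 2.48 and 2.50 in Myh10-/- lungs.

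**Figure D4:**
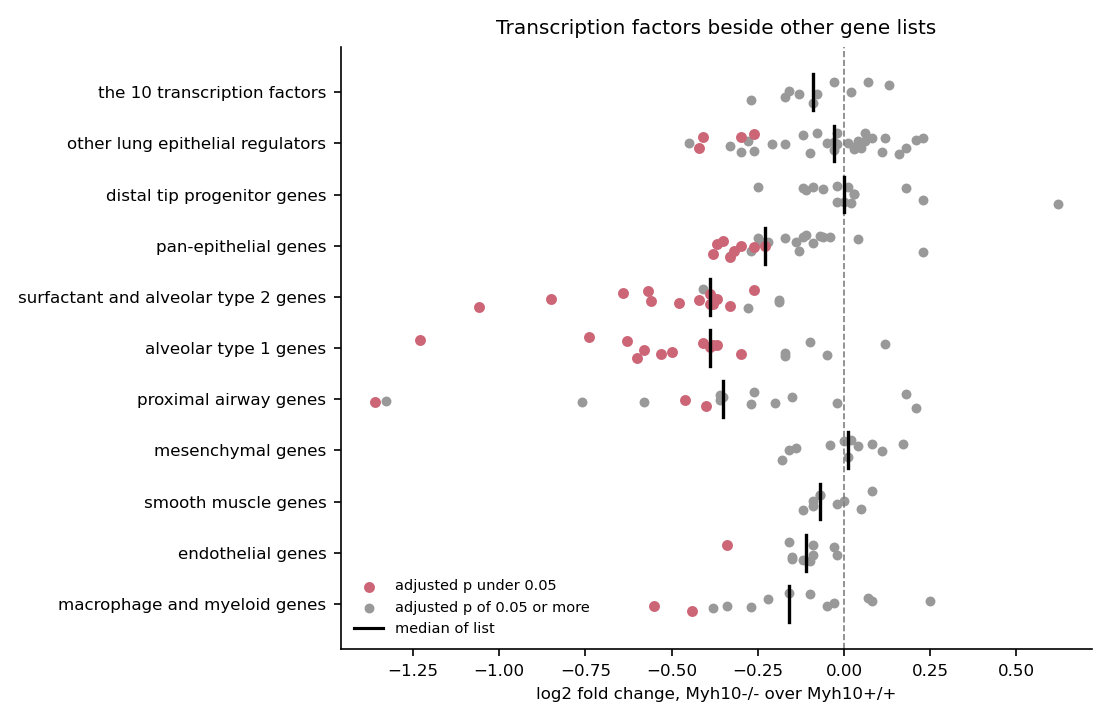
Log2 fold change of Myh10-/- over Myh10+/+ lungs for each tested gene of 11 lists; red points have an adjusted p under 0.05 and black bars are list medians. The 10 factors have no red point, and their median of -0.09 lies to the right of the medians of the alveolar type 1 and type 2 lists, both -0.39. Some genes of those lists lie among the factors. With libraries scaled to pan-epithelial genes all values move upward by 0.19 at the median.

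Genes of distal tip progenitors, the cells marked by Sox9 and Id2, had 0 calls of 15 and a median log2 fold change of 0.00. Cpm, a carboxypeptidase of distal epithelium, came closest (log2 fold change -0.25, adjusted p = 0.0503), and was called by DESeq2 (adjusted p = 0.0291); the list had 1 call without Myh10-/- replicate 2. Among 16 airway genes, the territory of Sox2, 3 fell. They were the club cell genes Scgb1a1, from 53.0 and 58.6 to 15.1 and 28.2 CPM (log2 fold change -1.36, adjusted p = 0.00897), Cyp2f2 (log2 fold change -0.46, adjusted p = 0.00897) and Sec14l3 (log2 fold change -0.40, adjusted p = 0.0118). The airway count was 6 without Myh10+/+ replicate 1 and 6 without Myh10-/- replicate 2, and 2 with DESeq2, which did not call Scgb1a1 (adjusted p = 0.0582). Foxj1, the factor of ciliated cells, measured 68.7 and 76.8 against 62.9 and 58.8 and was not called (log2 fold change -0.26, adjusted p = 0.121). Of 11 mesenchymal genes none was called (3 without Myh10-/- replicate 2), the median was 0.01, no gene was at 0, and the summed level was 4677 and 4763 CPM in Myh10+/+ lungs and 4641 and 4582 in Myh10-/- lungs.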

How the data were processed

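The deposited table holds, for each lung, unnormalized counts per Ensembl gene. The authors made these counts from single-end reads of stranded mRNA libraries, aligned to GRCm38 (mm10) with STAR 2.4.0a and counted with featureCounts 1.5.1, leaving out reads on several genes or regions. The annotation release is not given in the sources used here. Counts were tested across 18763 genes with edgeR 4.0.16 in R 4.3.3 (TMM, quasi-likelihood test, Benjamini-Hochberg adjustment), on genes averaging 5 counts or more; DESeq2 1.42.0 was an alternative. Levels are CPM of TMM-scaled libraries. Groups came from the labels. Gene spans and exon lengths came from GENCODE vM21, matched by identifier for 45143 of 45706 genes.

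The 10 members and the lists were chosen with earlier results of these data known. Genes were named by a rule: the members, Myh10, list genes that were called or among the 4 with the lowest p of their list, genes within 20 kb of a member, and Xist and Ddx3y. Etv5, Epcam, Sftpc, Foxj1, Hapln1, Cd68, Adgre1, Cx3cr1 and Mrc1 were named outside this rule, after their values were seen. Alternatives were other scalings, filters, dispersions, DESeq2, blocks and leaving out each lung.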

Additional observations from a re-analysis of the deposited data

How the results depend on the processing

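With 2 lungs per genotype, a factor could differ by up to the bounds given above without being called. Sox2, with the lowest counts, had the largest error. Of 140 values of the 10 factors under 14 alternatives each, 125 kept their direction and stayed uncalled, 5 passed the threshold and 10 changed sign. With libraries scaled to the pan-epithelial list, whose own genes were lower, 3 factors were called, and the log2 fold changes were 0.21 for Nkx2-1, 0.16 for Foxa1, 0.01 for Foxa2, 0.06 for Gata6, 0.09 for Sox2, 0.32 for Sox9, 0.26 for Id2, 0.02 for Klf5, 0.11 for Grhl2, 0.25 for Myh10 (called) and 0.14 for Epcam. Called genes in either direction under that scaling numbered 14 among the other regulators, 13 among the family relatives, 2 pan-epithelial, 1 target of Grhl2, 3 distal tip, 5 cartilage, 2 smooth muscle, 6 mesenchymal and 0 endothelial. Over all genes, 5102 of the 5275 calls were then higher, against 56 of 308. This follows from the scaling, which moves every value upward. With no filter 1 factor was called (Cebpa, -0.26), and 9 other regulators, 8 relatives, 1 distal tip gene and 8 airway genes. Over all genes 1162 of 28549 were then called, beside 308 of 18763 in the reported fit. The distal tip list also had 1 call with robust dispersion, with DESeq2's Wald test and at an adjusted p under 0.1, where relatives had 5. DESeq2 called 1 myeloid gene.

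The replicate numbers of the labels are shared between genotypes, but nothing says that they mark litters or batches, and deviations of same-numbered lungs correlated at -0.214 across all genes tested, -0.0187 without X, Y and MT genes and -0.718 over 10979 genes averaging 250 counts or more. With the replicate block 0 factors were called, and calls numbered 710 over all genes, 7 among relatives, 1 distal tip and 1 mesenchymal. With the crossed block, which also pairs the lungs by sex as Xist and Ddx3y show it and was chosen after seeing the data, 415 genes, 0 factors and 1 distal tip gene were called.

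Leaving out each lung in turn gave 0 to 1 called factors, 2 to 8 other regulators, 2 to 8 relatives, 4 to 13 pan-epithelial genes, 1 to 7 targets of Grhl2, 0 to 1 distal tip genes, 3 to 6 airway genes, 0 to 1 cartilage genes, 2 to 8 cardiac genes, 1 to 4 myeloid genes, 0 to 3 mesenchymal genes and 0 to 2 endothelial genes. It gave log2 fold changes of -0.01 to 0.06 for Nkx2-1, -0.11 to 0.06 for Foxa1, -0.01 to 0.15 for Id2, -0.40 to -0.14 for Cebpa, -0.03 to 0.05 for Etv5, -0.09 to 0.00 for Epcam, and -0.50 to 0.29 for Sox2ot. A lung left alone in its genotype was assumed to vary like the others. The causes of these differences were not tested.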

Other observations

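Neighbouring genes of the factors had their own values. On the opposite strand 17196 bases from Foxa1, 4921506M07Rik, a protein-coding gene named Ttc6 in GENCODE vM21, measured 34.8 and 30.7 CPM in Myh10+/+ lungs and 45.3 and 39.1 in Myh10-/- lungs (log2 fold change 0.36 ± 0.09 (SE), adjusted p = 0.0786 in edgeR's test and 0.0484 in DESeq2, which called it). On the same strand 2673 bases from Foxa2, 9030622O22Rik measured 10.9 and 12.1 against 14.8 and 14.3 (log2 fold change 0.34 ± 0.10 (SE), adjusted p = 0.102). On the opposite strand 247 bases from Sox9, BC006965 measured 1.05 and 1.05 against 1.65 and 2.02 (log2 fold change 0.81 ± 0.28 (SE), adjusted p = 0.171). In all 3 both Myh10-/- lungs were above both Myh10+/+ lungs, and none passed edgeR's test. Genotypes did not overlap, in either direction, in 48.3% of all genes. Near Grhl2, Ncald was lower without overlap, at 38.2 and 37.1 CPM against 33.3 and 34.9 (log2 fold change -0.14). Also there, Gm16138 was higher without overlap, at 5 and 3 counts against 7 and 11. Gm16136 (-0.16, near Grhl2) and 1010001N08Rik (0.19, near Gata6) overlapped between genotypes. Gm26973, which overlaps the span of Nkx2-1 on the opposite strand without sharing an exon, overlapped between genotypes (log2 fold change 0.12, adjusted p = 0.562), as did Sox2ot, which spans Sox2 (log2 fold change -0.08, adjusted p = 0.946).

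Neural and glial genes, which could enter with the lobe, had 0 calls of 5 tested, none was at 0, and their summed level was between 11.0 and 11.7 CPM in Myh10+/+ lungs and between 12.4 and 12.6 in Myh10-/- lungs.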
